A study of Mus musculus with 12 samples.

Results

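A set of 40 genes of endoplasmic reticulum (ER) stress, ER chaperones and heat shock was followed across the 4 groups of the study. The set was listed by gene symbol, and 38 of its genes could be matched to the array, of 12393 genes with a probe set that names 1 symbol. They were 30 ER genes and 8 of the 10 heat shock genes. Hsp90ab1 and Hsf1, which encode a cytosolic HSP90 and the master transcription factor of the heat shock response, are not analysed here. Where a gene had several probe sets, the brightest by its mean over the 12 arrays stood for it. All 38 genes passed the filter on dim genes, which used that same mean, and the lowest of their means was 388 intensity units. ER genes and genes of cytosolic or mitochondrial chaperones are described apart.

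The cells were embryonic fibroblasts of mice (MEFs) in which PPARγ was knocked out. PPARγ is the nuclear receptor that directs fat cell formation and the target of the insulin-sensitizing thiazolidinediones. Either wild-type PPARγ or S273A, which carries alanine in place of Ser273, a residue that can be phosphorylated, was put back into the knockout cells, and every group was taken through 6 days of differentiation. Of the 4 groups, the first held wild-type PPARγ and no added ligand, and the second held S273A PPARγ and no added ligand. The third held wild-type PPARγ with 1 µM rosiglitazone for 24 h, a thiazolidinedione agonist, and the fourth held wild-type PPARγ with 1 µM MRL24 for 24 h, another PPARγ ligand. Each group had 3 arrays. S273A cells were not treated with either ligand. The labels name neither the vector behind the introduced receptor, nor a vehicle for untreated cells, nor whether the arrays of a group stem from different cultures, so the p-values rest on array-to-array spread that may be technical. With 3 arrays against 3, an exact test could not reach a p below 0.1.

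The ER folds secreted and membrane proteins, and its HSP70 protein BiP (Hspa5), the lectin chaperones calreticulin and calnexin and the protein disulfide isomerases do most of that work. When unfolded proteins build up, the sensors IRE1 (Ern1), PERK (Eif2ak3) and ATF6 start the unfolded protein response. IRE1 splices the mRNA of Xbp1, PERK raises translation of ATF4, which switches on Atf3, CHOP (Ddit3) and amino acid genes, and cleaved ATF6 and spliced XBP1 raise chaperone and ER-associated degradation genes. The heat shock response is its cytosolic counterpart and runs through HSF1. Fat cells secrete much protein and make much lipid, XBP1 is needed for fat cell formation in culture, and CHOP can bind C/EBP factors and hold that process back.

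Promoters can hold elements that these branches use. The letters of 5 short elements were searched on both strands of the 250 bases before each start site, in RefSeq sequence of build GRCm38.p6. A window was matched for 33 of the 40 genes, 27 of the ER genes and 6 of the heat shock genes, among 27025 genes with a window. Atf6, Hsf1, Hsp90aa1, Hsp90ab1, Hspa8, Hyou1 and Manf were not matched. The ER stress element (ERSE), CCAAT and CCACG with 9 bases between them, was found in 8 of 27 ER genes (29.6%) against 0.13% of all genes. Those 8 were Calr, Canx, Creld2, Dnajc3, Hsp90b1, Hspa5, Pdia6 and Syvn1. Its variant ERSE-II, ATTGG and CCACG with 1 base between them, was found in 1 ER gene, Herpud1, against 0.037% of all genes. The core of the ATF6 and XBP1 site known as UPRE, TGACGTG, was found in 1 ER gene, Hspa5, against 1.85% of all genes. The core of the C/EBP-ATF response element (CARE) that ATF4 can bind, TGATGNAA, was found in 4 ER genes, Asns, Atf3, Chac1 and Herpud1 (14.8%), against 3.91% of all genes. The heat shock element, GAA, TTC and GAA with 2 bases between neighbours, was found in 2 of 6 heat shock genes, Hspd1 and Hspe1 (33.3%), against 0.514% of all genes. Matches of different elements did not overlap, while the heat shock element matched on both strands of the same stretch. A match describes letters and not a working site, and a window without a match says only that these letters are not in it.

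The windows below show what each kind of element other than ERSE-II looks like and 2 genes without one. They are written in the 5′ to 3′ direction of the gene, with matches in capitals. Hspa5, the model ER stress promoter and a gene called in no comparison, lies at chr2:34771840-34772089 on the + strand, with UPRE and ERSE letters in capitals. Calr lies at chr8:84846932-84847181 on the - strand and Canx at chr11:50325674-50325923 on the - strand, both with an ERSE in capitals. Atf3 lies at chr1:191183334-191183583 on the - strand, with CARE letters. Hspe1 lies at chr1:55087898-55088147 on the + strand, with a heat shock element. Dnajb9, which was called in 3 of the 4 comparisons, lies at chr12:44210069-44210318 on the - strand and Ddit3 at chr10:127290543-127290792 on the + strand, and both hold none of the 5 elements in this window. The windows of the called genes Xbp1, Atf4 and Edem1 hold none either.
Hspa5: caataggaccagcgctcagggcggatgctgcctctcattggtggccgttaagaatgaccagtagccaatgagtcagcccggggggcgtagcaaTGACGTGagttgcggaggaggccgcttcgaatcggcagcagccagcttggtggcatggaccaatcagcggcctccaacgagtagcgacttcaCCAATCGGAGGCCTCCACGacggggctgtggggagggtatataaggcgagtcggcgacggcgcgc
Calr: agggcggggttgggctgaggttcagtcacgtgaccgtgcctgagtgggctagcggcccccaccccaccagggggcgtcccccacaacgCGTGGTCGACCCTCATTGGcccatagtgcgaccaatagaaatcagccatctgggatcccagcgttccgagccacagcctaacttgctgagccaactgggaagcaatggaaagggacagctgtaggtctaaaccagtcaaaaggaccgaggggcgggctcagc
Canx: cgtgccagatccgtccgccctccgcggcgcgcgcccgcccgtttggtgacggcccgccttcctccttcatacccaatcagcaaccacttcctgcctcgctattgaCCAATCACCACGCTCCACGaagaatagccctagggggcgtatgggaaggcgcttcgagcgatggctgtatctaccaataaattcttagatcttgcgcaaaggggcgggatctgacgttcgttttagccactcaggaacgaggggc
Atf3: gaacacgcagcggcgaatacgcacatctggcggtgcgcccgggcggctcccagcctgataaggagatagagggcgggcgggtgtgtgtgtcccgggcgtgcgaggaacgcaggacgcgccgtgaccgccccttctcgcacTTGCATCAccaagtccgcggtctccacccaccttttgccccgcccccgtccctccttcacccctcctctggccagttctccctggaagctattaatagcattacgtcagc
Hspe1: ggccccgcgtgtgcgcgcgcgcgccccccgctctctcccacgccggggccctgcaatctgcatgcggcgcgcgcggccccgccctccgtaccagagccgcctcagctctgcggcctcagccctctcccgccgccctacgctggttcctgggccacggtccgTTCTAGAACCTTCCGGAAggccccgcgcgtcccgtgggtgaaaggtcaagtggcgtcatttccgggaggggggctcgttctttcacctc
Dnajb9: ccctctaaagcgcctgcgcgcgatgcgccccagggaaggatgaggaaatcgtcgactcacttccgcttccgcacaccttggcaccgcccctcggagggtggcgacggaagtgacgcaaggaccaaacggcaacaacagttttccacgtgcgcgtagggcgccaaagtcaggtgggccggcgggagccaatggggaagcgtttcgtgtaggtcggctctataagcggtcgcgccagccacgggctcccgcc
Ddit3: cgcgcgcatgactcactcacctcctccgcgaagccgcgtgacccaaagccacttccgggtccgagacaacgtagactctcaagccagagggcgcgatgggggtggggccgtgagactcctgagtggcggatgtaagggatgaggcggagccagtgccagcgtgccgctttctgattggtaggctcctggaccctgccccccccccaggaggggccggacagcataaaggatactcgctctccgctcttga
Hspe1 and Hspd1, the partner genes of the mitochondrial chaperonin, start next to each other in opposite directions on chromosome 1. Their windows share 215 bases, so the heat shock element of 18 bases in both is the same stretch of DNA and counts once.

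The median intensity of an array ran from 297 to 315, and its highest value from 31882 to 33624. Untreated wild-type replicate 2 stood apart, at -16.1 on the first principal component of all tested genes (25.8% of the variance) against -6.05 to 7.92 on the other 11 arrays. Residuals of the fit (log2) had an SD of 0.142 on it and of 0.0883 to 0.120 on the other arrays. The 13 ER chaperone and isomerase genes deviated from their group means by a median of -0.08 on it (log2), against -0.03 to 0.08 on the other arrays. Of 10 adipocyte markers 8 were on the array and 5 passed the filter. Fabp4, a lipid-binding protein of fat cells, averaged 9509 in untreated wild-type, 9701 in S273A, 25153 with rosiglitazone and 15339 with MRL24, while Adipoq, Cidec and Lep, markers of mature fat cells, were below the filter in mean level. Pparg, whose level does not show the substitution, did not pass the test against untreated wild-type, with log2 changes of 0.24 for S273A (limma, Benjamini-Hochberg adjusted p = 0.173), -0.11 for rosiglitazone (adjusted p = 0.537) and -0.09 for MRL24 (adjusted p = 0.621). In RNA from whole cultures, fewer cells of a type and less RNA per cell cannot be told apart.

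A gene was called when its Benjamini-Hochberg adjusted p from limma, over 8675 tested genes, was under 0.05, and changes are differences of log2(intensity + 16), with the untreated wild-type arrays as the reference unless another is named. Of the 38 genes, 9 were called in at least 1 of the 4 comparisons and 29 in none. The changes were small. On the brightest probe sets and with all arrays, no gene of the set moved by more than 0.41 on the log2 scale (a 1.33-fold difference). The median standard error of a change was 0.06. The heat map of all 38 genes shows these values array by array, and the 3 comparisons with untreated wild-type share its 3 arrays, so changes in them are not independent of each other.

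**Figure D1:**
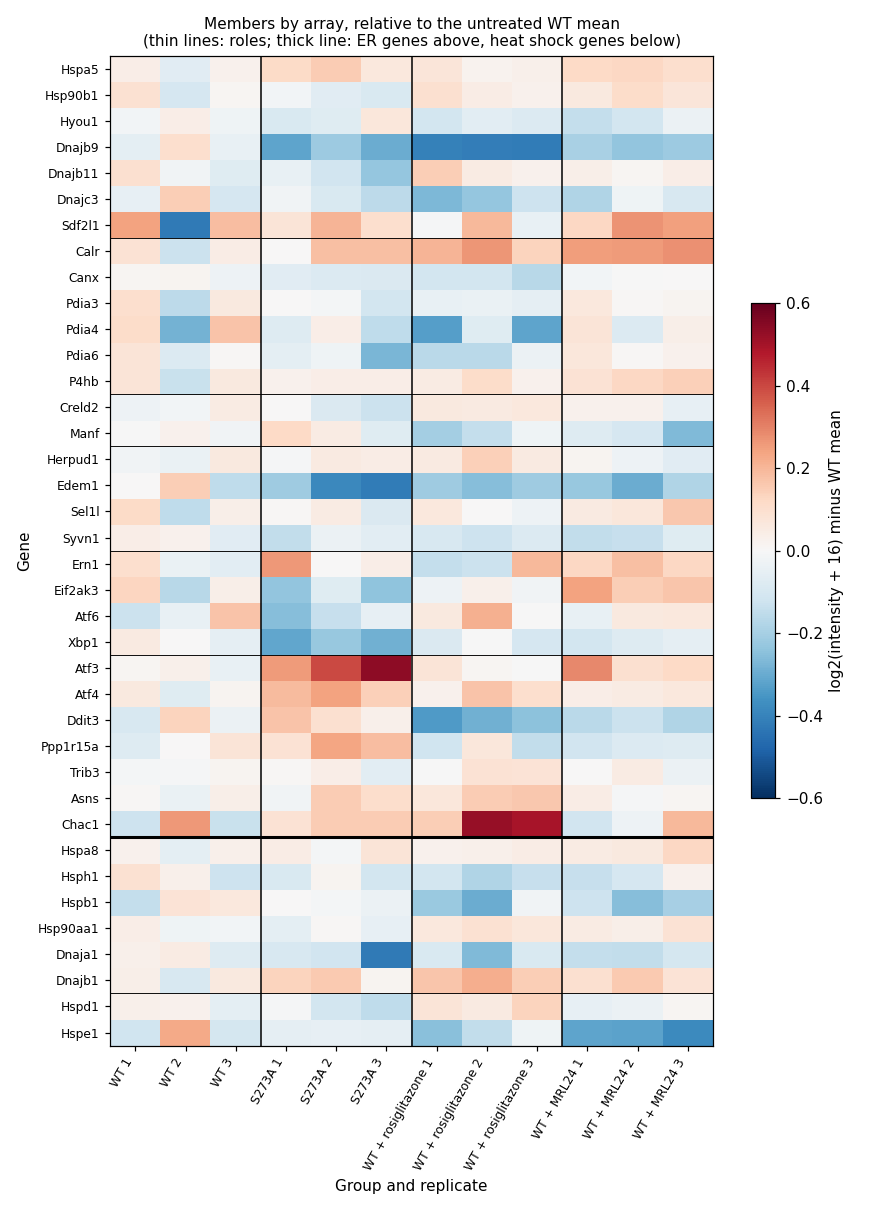
Heat map of the 38 genes (rows, grouped by role) on the 12 arrays (columns, grouped by condition); colour gives log2(intensity + 16) minus the mean of the 3 untreated wild-type arrays. Dnajb9 is below the untreated wild-type arrays in all 9 other columns, Atf3 is above the untreated wild-type arrays in the 3 S273A columns, and Sdf2l1 is low on untreated wild-type replicate 2.

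With S273A PPARγ, the stress transcription factors Atf3 and Atf4 rose while Xbp1, the co-chaperone Dnajb9 and the degradation factor Edem1 fell. These were the 5 called ER genes of 30 (16.7%), 2 higher and 3 lower. Over all 8675 genes 7.78% were called, 2.31% higher and 5.48% lower. The median change of the ER genes was -0.02 against -0.01 over all genes, and 13 ER genes lay above 0 and 17 below. No heat shock gene of 8 was called by limma, and 1 had an unadjusted p under 0.05, as did 21.5% of all genes.

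Dnajb9, a J-domain protein that brings BiP to misfolded proteins and to IRE1, read 2259, 2526 and 2281 in untreated wild-type cells and 1883, 2019.7 and 1909 in S273A cells. The groups did not overlap, and Dnajb9 fell by 0.28 (SE 0.05, n = 3 per group, limma adjusted p = 0.00331). The other ER HSP70 and HSP90 system genes were not called. Hspa5, the HSP70 of the ER and the usual gauge of ER stress, read 12267, 11382 and 12113 in untreated wild-type and 12923, 13224 and 12459.5 in S273A cells. All 3 S273A arrays were above the untreated ones, but the difference of 0.11 (SE 0.04) did not pass (limma adjusted p = 0.0725). After quantile normalization it did (0.11, adjusted p = 0.0346). Hsp90b1, the HSP90 of the ER, differed by -0.06 (95% interval -0.15 to 0.03), and Hyou1, a nucleotide exchange factor of BiP, by -0.03 (-0.14 to 0.08). Sdf2l1, a partner of ER J-domain proteins, had 851 and 819 on untreated wild-type replicates 1 and 3 and 531 on replicate 2, and its difference of 0.13 was not called. The J-domain genes Dnajb11 and Dnajc3 differed by -0.13 and -0.09.

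Among the lectin chaperones and disulfide isomerases none was called with S273A. Their differences on the brightest probe sets ran from -0.12 for Pdia6 to 0.12 for Calr. Canx, the membrane-bound lectin chaperone, read 10086, 10124 and 9803 in untreated wild-type and 9538, 9461 and 9416 in S273A cells. Its groups did not overlap, yet the difference of -0.08 had an adjusted p of 0.15 (limma). The secreted ER stress proteins Creld2 and Manf differed by -0.07 and 0.03 and were not called.

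In ER-associated degradation, which pulls misfolded proteins out of the ER, Edem1 was the called gene. Edem1 recognizes mannose-trimmed glycoproteins, and it read 1030.3, 1143 and 924 in untreated wild-type and 884, 784 and 764 in S273A cells. No S273A array reached the lowest untreated one, and Edem1 fell by 0.34 (SE 0.08, limma adjusted p = 0.0121). Its second probe set differed by 0.08, and with the mean of both the change was -0.13 (adjusted p = 0.237). Without S273A replicate 2 it was -0.32 (adjusted p = 0.053) and without S273A replicate 3 it was -0.30 (adjusted p = 0.0599). Herpud1, Sel1l and Syvn1, parts of the same ubiquitin ligase complex, differed by 0.03, -0.01 and -0.08 and were not called.

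Xbp1, the transcription factor whose mRNA IRE1 splices, read 4163, 4010.0 and 3859.5 in untreated wild-type and 3229, 3418 and 3275 in S273A cells. The S273A arrays lay below all untreated ones, and Xbp1 fell by 0.28 (SE 0.04, limma adjusted p = 0.00119). The spliced and the unspliced mRNA were not told apart here. The other probe sets of Xbp1 gave -0.15, -0.30 and 0.07, and with the mean of all 4 the change was -0.16 (adjusted p = 0.135). The sensor genes Ern1, Eif2ak3 and Atf6 were not called, with differences of 0.10, -0.18 and -0.15.

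In the ATF4 and CHOP branch, Atf3, a stress-induced repressor and activator of transcription, read 852, 865 and 821 in untreated wild-type and 1014, 1117 and 1235 in S273A cells. Every S273A array was above every untreated one, and Atf3 rose by 0.40 (SE 0.07, 1.32-fold, limma adjusted p = 0.00332). Atf4, the translationally controlled activator of amino acid genes, read 8324, 7619 and 8083 in untreated wild-type and 9140.1, 9454 and 8833 in S273A cells. These groups did not overlap either, and Atf4 rose by 0.19 (SE 0.04, limma adjusted p = 0.0131). A second bright probe set of Atf4 gave 0.08, and a dim one with group means of 11.6 to 21.4 intensity units gave 0.44. With the mean of all 3 the change was 0.23 and the adjusted p 0.114. Without S273A replicate 2 the adjusted p of Atf4 was 0.0687, and the ER count was then 3 of 30. Ddit3, the gene of CHOP, read 6866, 8057 and 7163 in untreated wild-type and 8284, 7848 and 7499 in S273A cells, groups that overlapped, and its difference of 0.10 (95% interval -0.01 to 0.21) was not called. Without untreated wild-type replicate 2, the highest of the 3, it was called (0.17, adjusted p = 0.031). Ppp1r15a, the phosphatase subunit that reverses the PERK signal, had all S273A arrays above untreated ones at 0.17 (limma adjusted p = 0.142). Trib3, Asns and Chac1, a pseudokinase, an asparagine synthetase and a glutathione-degrading enzyme that ATF4 raises, differed by 0.00, 0.08 and 0.13 and were not called.

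Of the cytosolic chaperones, Hspa8, the constitutive HSP70, read 18444, 17406 and 18472 in untreated wild-type and 18673, 17944 and 19073 in S273A cells. Hsp90aa1, the stress-inducible cytosolic HSP90, read 10370.5, 9907 and 9958 in untreated wild-type and 9686, 10124 and 9734 in S273A cells. Hspb1, a small heat shock protein, read 2499, 2923 and 2884 in untreated wild-type and 2766, 2737 and 2693 in S273A cells. In all 3 the groups overlapped, and the differences were 0.04 (95% interval -0.04 to 0.11), -0.03 (-0.10 to 0.04) and -0.02 (-0.17 to 0.13). The other probe set of Hspb1 differed by 0.23. Over the 8 heat shock genes, on their brightest probe sets, the intervals reached from -0.38 to 0.22. Dnaja1, a J-domain partner of HSP70, had all S273A arrays below untreated ones at -0.21 (limma adjusted p = 0.134), and with the mean of its probe sets it was called (-0.25, adjusted p = 0.0424). Hsph1, an HSP110 nucleotide exchange factor, Dnajb1, the J-domain partner of the heat-inducible HSP70, and the chaperonin genes Hspd1 and Hspe1 were not called. Dnajb1 differed by 0.10 on its brighter probe set and by -0.49 on the other.

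Fibroblast markers moved in the same comparison. Of 7 markers, among them the collagens Col1a1, Col1a2 and Col3a1, 6 were lower in S273A cells by limma, with a median change of -0.36, and their summed level was 44657 to 48509 in S273A against 53165 to 58256 in untreated wild-type arrays. The adipocyte sum was 12671 to 13327 in S273A against 11695 to 13522 in untreated wild-type, all 5 markers that passed the filter lay above 0 and 1, the fatty acid transporter gene Cd36, was called higher (mean 164 untreated and 302 in S273A). Below the filter, Adipoq averaged 97.2 in S273A against 53.5 untreated, Lep 13.2 against 11.1 and Cidec 7.33 against 18.4. The macrophage sum was 3864 to 4060 against 3197 to 3696, with 1 of 5 markers that passed the filter called higher and Lyz2 and Ptprc below the filter. Their part in the changes of the stress genes was not tested.

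**Figure D2:**
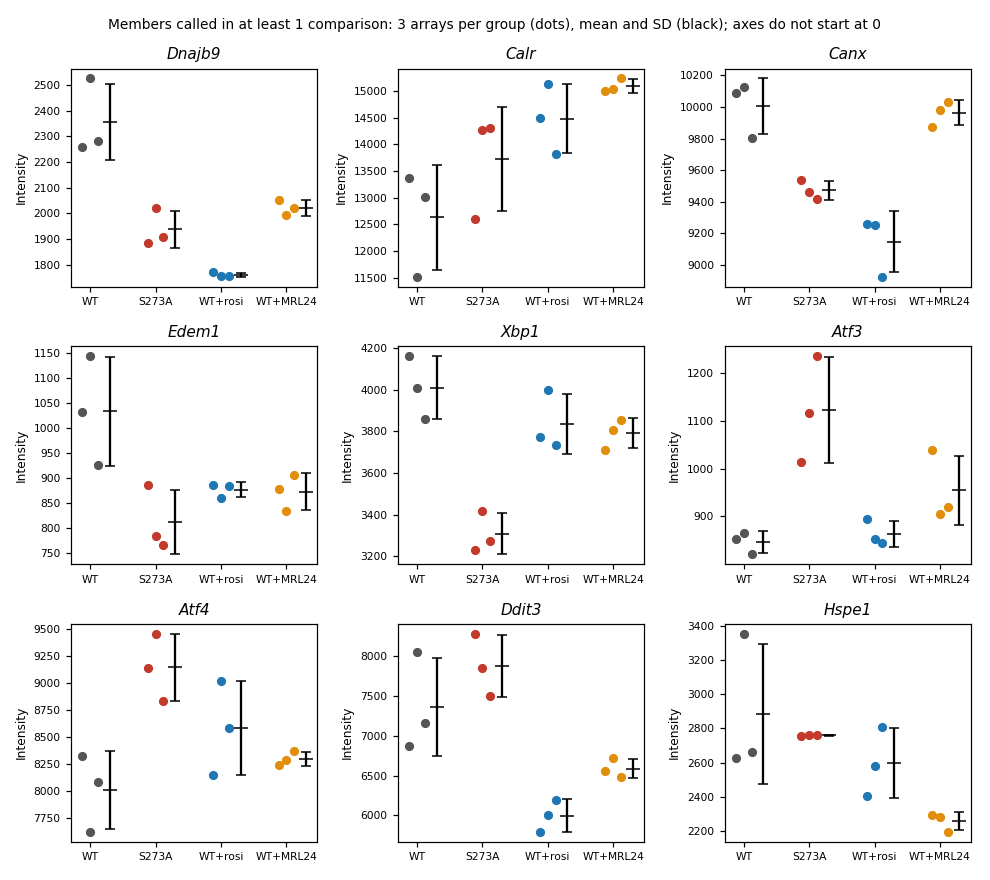
Intensity on each of the 12 arrays for the 9 genes called in at least 1 comparison, 1 panel per gene, with points for arrays, bars for group means and error lines for 1 SD (n = 3). Axes differ between panels: Dnajb9 is highest in untreated wild-type, Xbp1 is lowest in S273A, Atf3 has its highest mean in S273A, Ddit3 is lowest with rosiglitazone and Hspe1 is lowest with MRL24.

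With rosiglitazone, Dnajb9, Ddit3 and Canx fell and Calr rose. These 4 of 30 ER genes (13.3%), 1 higher and 3 lower, stood against 8.52% of all genes called, 3.94% higher and 4.58% lower. The ER genes had a median change of 0.00, as did all genes, and 15 lay on either side of 0. None of 8 heat shock genes was called by limma, and 3 had an unadjusted p under 0.05, as did 23.8% of all genes.

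Dnajb9 read 1770.4, 1758 and 1755 on the rosiglitazone arrays, all below the S273A, MRL24 and untreated arrays. It fell by 0.41 against untreated wild-type (SE 0.05, 1.33-fold, limma adjusted p = 9.13e-05), the lowest adjusted p of the set. Hspa5 read 12541, 12075 and 12158, which overlapped the untreated arrays, and differed by 0.04 (95% interval -0.03 to 0.12). Dnajc3, a J-domain co-chaperone of BiP and inhibitor of PERK, lay below the untreated arrays at -0.21 (limma adjusted p = 0.0938) and was not called. On their brightest probe sets the other genes of this role differed by -0.09 (Hyou1) to 0.07 (Dnajb11, an ER J-domain protein).

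The lectin chaperones moved in opposite directions. Calr, the soluble calcium-binding lectin chaperone, read 13363, 11515 and 13007 in untreated wild-type cells and 14498, 15132 and 13822 with rosiglitazone. The groups did not overlap, and Calr rose by 0.20 (SE 0.06, limma adjusted p = 0.0359). The call was lost in 11 of 20 alternative settings, among them without untreated wild-type replicate 2, the lowest array of Calr (adjusted p = 0.122), without rosiglitazone replicate 1 (0.0915) or 2 (0.16), and without MRL24 replicate 1 (0.0526), 2 (0.0534) or 3 (0.051). Canx read 9262, 9255 and 8926 with rosiglitazone, below every other array of the study, and fell by 0.13 (SE 0.03, limma adjusted p = 0.0173). Its other probe sets gave 0.00 and -0.12, the adjusted p was 0.208 with the mean of all 3, and it was 0.0818 without rosiglitazone replicate 3. The disulfide isomerases Pdia3, Pdia4, Pdia6 and P4hb, which form and shuffle disulfide bonds, were not called, with differences of -0.05, -0.24, -0.12 and 0.06. Without untreated wild-type replicate 2, its lowest untreated array, Pdia4 was called (-0.38, adjusted p = 0.00734). With all arrays, the other probe set of Pdia4 differed by 0.14.

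Ddit3 read 5791, 6003 and 6197 with rosiglitazone against 6866, 8057 and 7163 in untreated wild-type. All 3 treated arrays lay below all 3 untreated ones, and Ddit3 fell by 0.29 (SE 0.05, 1.22-fold, limma adjusted p = 0.00263). Atf4 read 8146, 9018 and 8580.0, which overlapped the untreated arrays, with a difference of 0.10 (adjusted p = 0.178). Atf3, the gene that rose with S273A, read 895, 853 and 844 and differed by 0.03 (95% interval -0.13 to 0.19). Chac1, which degrades glutathione under stress, read 318, 419.6 and 316 in untreated wild-type and 388, 507 and 497 with rosiglitazone. These arrays overlapped, and its difference of 0.39 had an adjusted p of 0.0605 by limma. It was called without untreated wild-type replicate 2 (0.52, adjusted p = 0.0122) and without rosiglitazone replicate 1 (0.51, adjusted p = 0.0242). Xbp1 read 3774, 4001 and 3733 and differed by -0.06 (95% interval -0.16 to 0.03), with overlap. Edem1 read 885, 859 and 884, below the untreated arrays, but its difference of -0.23 was not called (adjusted p = 0.0783). It was called without untreated wild-type replicate 3 (-0.30, adjusted p = 0.0217), while the second probe set of Edem1 differed by -0.03. Creld2, Manf, Herpud1, Sel1l, Syvn1, Ern1, Eif2ak3, Atf6, Ppp1r15a, Trib3 and Asns were not called. Their differences on the brightest probe sets ran from -0.12 (Manf) to 0.13 (Asns).

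Among heat shock genes, Hspa8 read 18406, 18462 and 18665 and Hsp90aa1 read 10538, 10750.4 and 10565 with rosiglitazone. Hspa8 overlapped the untreated arrays and Hsp90aa1 lay above them, at 0.03 (95% interval -0.04 to 0.10) and 0.08 (0.01 to 0.15), and neither was called. Hspb1 read 2362, 2243 and 2724, with overlap, and differed by -0.18 (adjusted p = 0.132). It was called without untreated wild-type replicate 1 (-0.25, adjusted p = 0.0377) and without rosiglitazone replicate 3 (-0.26, adjusted p = 0.0349). The other probe set of Hspb1 differed by -0.07. Dnajb1 lay above the untreated arrays at 0.18 (adjusted p = 0.0602) on the brighter probe set, while the other gave -0.19. It was called without untreated wild-type replicate 3 (0.21, adjusted p = 0.0491) and without S273A replicate 3 (0.18, adjusted p = 0.0466). Hsph1, Dnaja1, Hspd1 and Hspe1 differed by -0.14, -0.15, 0.09 and -0.14 and were not called. The intervals of the 8 genes reached from -0.33 to 0.29. Adipocyte markers moved with this comparison: their sum was 30861 to 31448 with rosiglitazone against 11695 to 13522 untreated, and 3 of the 5 that passed the filter rose. Fabp4 made up most of that sum, with means of 25153 with rosiglitazone and 9509 untreated, while Retn averaged 331 and 323. The defining markers Adipoq, Cidec and Lep averaged 139, 97.5 and 15.0 with rosiglitazone. Of 7 fibroblast markers 2 fell and 6 lay below 0, with sums of 53728 to 55219.5 against 53165 to 58256 untreated. Their part in the changes of the stress genes was not tested.

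With MRL24, Calr rose, and Dnajb9 and the mitochondrial co-chaperonin gene Hspe1 fell. Of 30 ER genes 2 were called (6.67%), 1 higher and 1 lower, and of 8 heat shock genes 1 was called, lower. Over all genes 5.86% were called, 3.39% higher and 2.47% lower, so the ER share was near that of all genes. The median change was 0.02 over the ER genes, -0.05 over the heat shock genes and 0.01 over all genes. The split of calls over all genes depended on scaling, with 294 higher and 214 lower on the deposited scale, 209 and 503 with equal array medians, and 259 and 332 after quantile normalization. The ER calls became 1 higher and 3 lower with equal medians.

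Dnajb9 read 2052, 1992 and 2020.1 with MRL24. The 3 arrays lay below the untreated ones, and Dnajb9 fell by 0.22 (SE 0.05, limma adjusted p = 0.0267). Calr read 15004, 15042 and 15236, above all untreated arrays, and rose by 0.26 (SE 0.06, limma adjusted p = 0.0172). Its other probe sets gave 0.23 and 0.22. Hspe1, the lid of the mitochondrial chaperonin, read 2631, 3353 and 2663 in untreated wild-type and 2297, 2287 and 2198 with MRL24. No MRL24 array reached the lowest untreated one, and Hspe1 fell by 0.34 (SE 0.08, limma adjusted p = 0.0216), with -0.29 on its other probe set. Hspd1, whose product forms the barrel of that chaperonin, read 6143, 6140.1 and 5788 in untreated wild-type and 5812, 5877 and 6075 with MRL24. These arrays overlapped, and its difference was -0.02 (95% interval -0.12 to 0.07).

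The 3 calls with MRL24 were all lost without untreated wild-type replicate 2, which for Dnajb9 and Hspe1 was the highest untreated array and for Calr the lowest. The changes were then -0.17 for Dnajb9 (adjusted p = 0.0873), 0.19 for Calr (0.0528) and -0.23 for Hspe1 (0.052). They were also lost without any 1 MRL24 array: leaving out replicate 1, 2 or 3 gave 0.0604, 0.0979 and 0.087 for Dnajb9, 0.052, 0.0593 and 0.0702 for Calr, and 0.0558, 0.0684 and 0.087 for Hspe1. The sizes hardly moved without a MRL24 array, at -0.23, -0.21 and -0.22 for Dnajb9, 0.26, 0.26 and 0.25 for Calr, and -0.35, -0.35 and -0.32 for Hspe1. Without untreated wild-type replicate 1 the counts with MRL24 were 5 ER genes and 2 heat shock genes.

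Hspa5 read 12965, 12984 and 12789.5 with MRL24, above the untreated arrays, at 0.12 (SE 0.04), but it was not called (limma adjusted p = 0.0631). It was called without untreated wild-type replicate 1 (0.14, adjusted p = 0.0384). Ddit3 read 6559, 6721 and 6482, below the untreated arrays, and its difference of -0.16 was not called (adjusted p = 0.0878). Edem1 read 877, 833 and 905, also below the untreated arrays, at -0.24 (adjusted p = 0.0759). Ddit3 was called without untreated wild-type replicate 1 (-0.21, adjusted p = 0.0323) and with equal medians (-0.20, adjusted p = 0.0439), and Edem1 without untreated wild-type replicate 3 (-0.31, adjusted p = 0.027) and with equal medians (-0.28, adjusted p = 0.0433). These genes lay on 1 side of the untreated arrays without passing the test. The second probe set of Edem1 differed by 0.08. Xbp1 read 3713, 3805 and 3857 and Atf4 read 8235, 8286 and 8367, with differences of -0.08 and 0.05. Atf3 read 1038, 906 and 919, above the untreated arrays, at 0.17 (adjusted p = 0.169). Canx read 9875, 9981 and 10034, which overlapped the untreated arrays, at -0.01 (95% interval -0.07 to 0.06). The other probe sets of Canx differed by 0.22, with all MRL24 arrays above the untreated ones, and by -0.12. The other ER genes were not called, with differences on their brightest probe sets from -0.15 (Manf) to 0.21 (Sdf2l1). Of them P4hb was called without untreated wild-type replicate 1 (0.16, adjusted p = 0.0442). Some of their other probe sets lay outside that range, among them 0.26, 0.23 and 0.22 for Sel1l, 0.38 for Herpud1 and -0.28 for Trib3. The value of Herpud1 rested on MRL24 replicate 1, at 1513 against 730 and 725 on the others.

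Hspa8 read 18720.5, 18835 and 19742, above the untreated arrays, Hsp90aa1 read 10413, 10339.5 and 10686 and Hspb1 read 2536, 2312 and 2399.8, both with overlap. Their differences were 0.08 (95% interval 0.00 to 0.15), 0.06 (-0.01 to 0.13) and -0.19 (-0.34 to -0.04), and none was called. Hsph1, Dnaja1 and Dnajb1 differed by -0.07, -0.13 and 0.11. Hspb1 was called without untreated wild-type replicate 1 (-0.26, adjusted p = 0.0322). Its other probe set differed by 0.02. The adipocyte sum was 18926 to 19180 with MRL24, and Adipoq averaged 68.0, Cidec 30.4 and Lep 9.19. The sum was 11695 to 13522 in untreated arrays, 3 of the 5 adipocyte markers that passed the filter rose, and 1 of 7 fibroblast markers fell. The part of those markers in the changes of the stress genes was not tested.

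**Figure D3:**
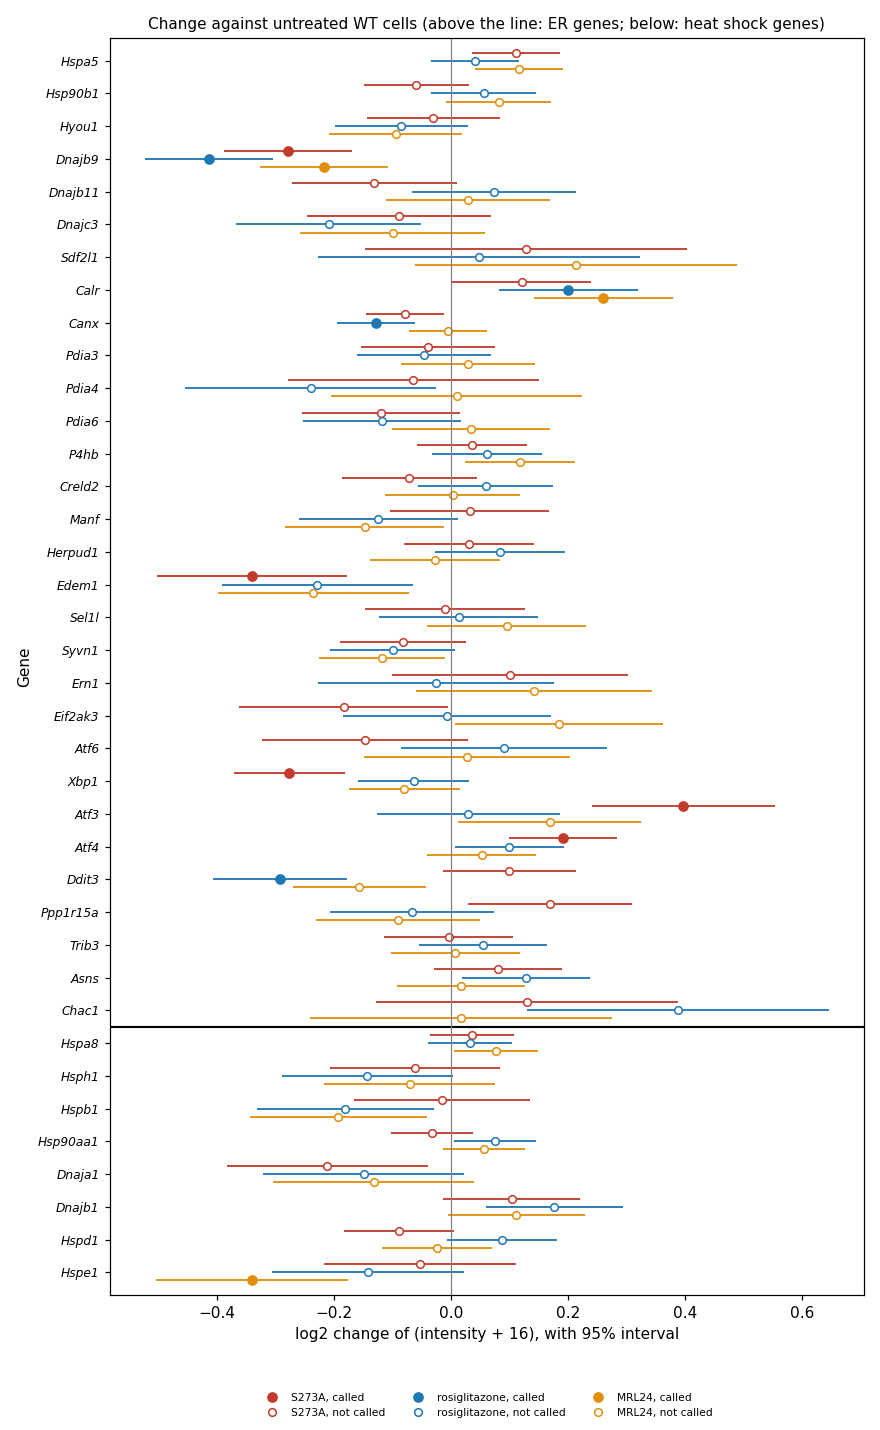
Log2 change of each of the 38 genes against untreated wild-type, with 95% intervals from limma, for S273A, rosiglitazone and MRL24; filled points were called at an adjusted p under 0.05. Of 114 intervals 77 span 0, and Dnajb9 lies left of 0 in all 3 comparisons, which share the same untreated arrays.

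The ligands were also compared directly, at the same dose of 1 µM and the same 24 h, which leaves the untreated arrays out of the contrast. Canx was the 1 called gene of 30 ER genes (3.33%), lower with rosiglitazone. No heat shock gene of 8 was called by limma, and 2 were at an unadjusted p under 0.05, as were 15.4% of all genes. Over all genes 2.66% were called, 1.50% higher and 1.16% lower with rosiglitazone. These were 38 gene tests between 2 compounds, with p-values adjusted over all 8675 genes. The split over all genes was 130 higher and 101 lower, and 152 and 68 with equal array medians.

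Canx lay lower on every rosiglitazone array than on every MRL24 array, by -0.12 (SE 0.03, 95% interval -0.19 to -0.06, limma adjusted p = 0.0469). The call held in 3 of 20 alternative settings, with adjusted p from 0.0135 to 0.235, and it was lost without any 1 array other than untreated wild-type replicate 2. Without that array 3 ER genes and 494 instead of 231 genes in all were called. The other Canx probe sets differed by -0.22 and 0.00. On the brightest probe sets, all 6 lectin chaperones and disulfide isomerases had a lower mean with rosiglitazone than with MRL24. Differences ran from -0.25 for Pdia4 to -0.06 for P4hb, and only Canx passed. The other probe sets of Pdia4 and Pdia6 differed by -0.01 and 0.20. Dnajb9 was lower on all rosiglitazone arrays than on all MRL24 arrays, at -0.20 (95% interval -0.31 to -0.09), just outside the threshold (limma adjusted p = 0.0547). It was called without untreated wild-type replicate 2 (adjusted p = 0.0122), after quantile normalization (0.0379), with the mean of all probe sets (0.0368) and in the fit of 6 arrays (0.0141).

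Ddit3 had no overlap between the ligands either, at -0.14 (95% interval -0.25 to -0.02, adjusted p = 0.221), and it was called in the fit of 6 arrays (adjusted p = 0.0334). Calr, which rose with each ligand against untreated cells, differed by -0.06 between them (-0.18 to 0.06). Chac1 differed by 0.37 (0.11 to 0.63), the largest difference of the set, with overlapping arrays and an adjusted p of 0.129 by limma, or 0.0487 without untreated wild-type replicate 2. Hspe1 was higher on all rosiglitazone arrays than on all MRL24 arrays, at 0.20 (0.03 to 0.36, adjusted p = 0.213), and Hspd1 likewise at 0.11 (0.02 to 0.21, adjusted p = 0.22). Hspe1 was called without untreated wild-type replicate 2 (0.20, adjusted p = 0.0292). For Hspa5 the difference was -0.08 (-0.15 to 0.00), for Xbp1 0.02 (-0.08 to 0.11), for Atf4 0.05 (-0.05 to 0.14) and for Atf3 -0.14 (-0.30 to 0.02). For Hspa8 it was -0.04 (-0.12 to 0.03), for Hsp90aa1 0.02 (-0.05 to 0.09) and for Hspb1 0.01 (-0.14 to 0.16). The adipocyte sum differed between the ligands, 30861 to 31448 with rosiglitazone and 18926 to 19180 with MRL24, and 3 of 5 markers were called higher with rosiglitazone. All 7 fibroblast markers lay lower with rosiglitazone, 2 of them called, with a median of -0.15. The part of these markers in the differences was not tested. A missed threshold does not show that the ligands act alike on these genes, and over the 30 ER genes the intervals reached from -0.46 to 0.63.

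**Figure D4:**
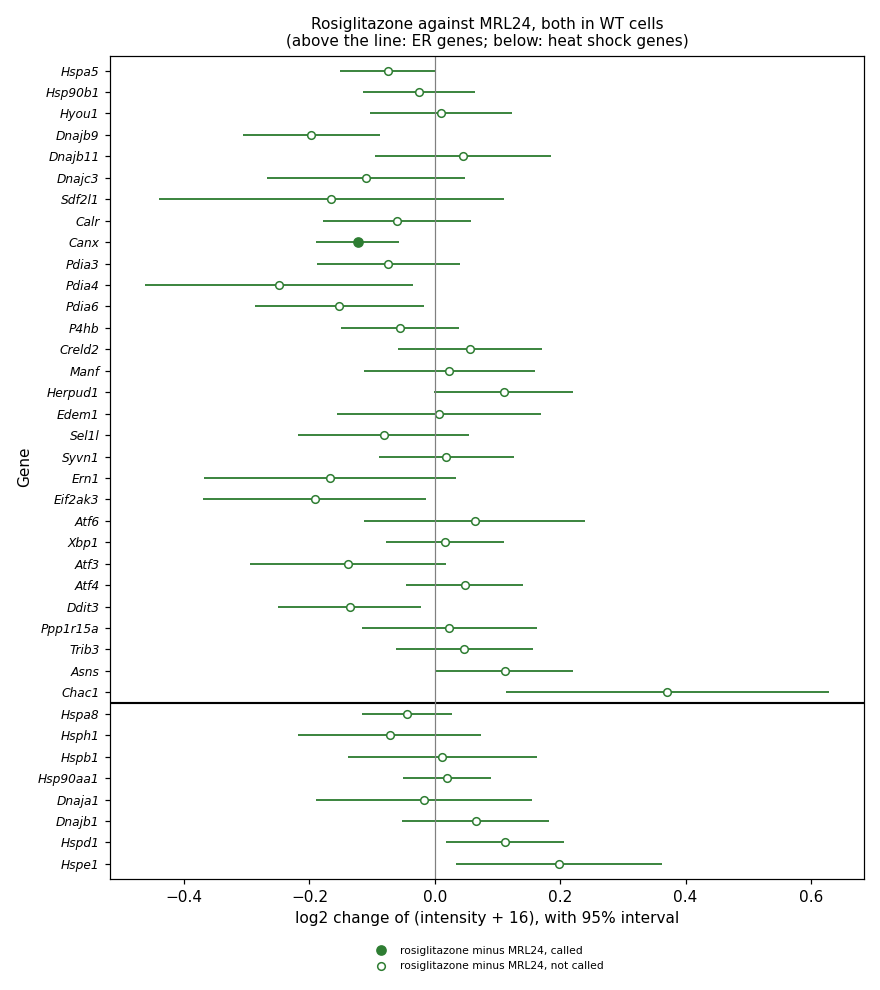
Log2 difference, rosiglitazone minus MRL24, for each of the 38 genes with 95% intervals from limma (3 arrays per ligand); the filled point was called. Canx, at -0.12, is the called gene, and the 6 lectin chaperones and disulfide isomerases all lie left of 0.

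Other genes of the same pathways came from a list of 165, of which 150 were on the array and 143 were tested. With S273A 12 were called (8.39%), 2 higher and 10 lower, against 7.78% of all genes. With rosiglitazone 13 were called (9.09%), 8 higher and 5 lower, against 8.52% of all genes. With MRL24 10 were called (6.99%), 5 in each direction, against 5.86%, and between the ligands 3 (2.10%) against 2.66%. These shares are near those of all genes. In all, 29 genes were called in at least 1 comparison.

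Creb3l1, an ER-bound transcription factor related to ATF6 that drives collagen secretion genes, read 1449, 1434 and 1504 in untreated wild-type, 1020.2, 1055 and 992 in S273A and 1764, 1712 and 1768 with rosiglitazone. It lay below the untreated arrays with S273A and above them with rosiglitazone. It fell by 0.51 with S273A (SE 0.05, limma adjusted p = 1.66e-05) and rose by 0.25 with rosiglitazone (adjusted p = 0.00478). Mbtps1, the protease that cleaves ATF6, fell by 0.23 with S273A (adjusted p = 0.0099), a change that turned to 0.04 (adjusted p = 0.894) with the mean of its probe sets. Creb3l2, a relative of Creb3l1, rose by 0.32 with rosiglitazone (adjusted p = 0.0238) and by 0.37 with MRL24 (adjusted p = 0.0204). With the mean of its probe sets the changes of Creb3l2 were 0.13 (adjusted p = 0.234) and 0.11 (adjusted p = 0.292), and without untreated wild-type replicate 2 they were 0.20 (adjusted p = 0.0647) and 0.25 (adjusted p = 0.0514). Nfe2l2, the oxidative stress factor NRF2, fell by 0.20 with rosiglitazone (adjusted p = 0.0136).

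Among 28 tested ATF4 target genes, the median change with S273A was -0.09 against -0.01 over all genes, with 7 above 0 and 21 below. With S273A 5 were called (17.9%), 1 higher and 4 lower, against 7.78% of all genes, 2.31% higher and 5.48% lower. Those that fell were the tRNA synthetase genes Iars (-0.30, adjusted p = 0.00611) and Aars (-0.25, adjusted p = 0.0316), the transcription factor Atf5 (-0.22, adjusted p = 0.0125) and the serine synthesis gene Psat1 (-0.17, adjusted p = 0.0288). The 1 that rose was Ddit4, an inhibitor of mTOR signalling (0.19, adjusted p = 0.0421), named after its value was seen. With rosiglitazone 1 of the 28 rose, the stress-induced cofactor gene Nupr1 (0.21, adjusted p = 0.0141). With MRL24 the C/EBP gene Cebpb rose (0.21, adjusted p = 0.02) and the lipoprotein receptor gene Vldlr fell (-0.17, adjusted p = 0.0314), and with the mean of its probe sets its difference was -0.10 (adjusted p = 0.221). Against MRL24, rosiglitazone arrays were higher for Nupr1 (0.26, adjusted p = 0.00849) and lower for Cebpb (-0.21, adjusted p = 0.0239). All these p-values are from limma with Benjamini-Hochberg adjustment.

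Among 19 tested genes of ER folding and glycan processing, 3 rose and 1 fell with rosiglitazone, 2 rose and 3 fell with MRL24, and 1 fell with S273A. Over all genes 3.94% rose and 4.58% fell with rosiglitazone, 3.39% and 2.47% with MRL24, and 2.31% and 5.48% with S273A. The prolyl isomerase gene Fkbp9 read 5572, 6005 and 5507 in untreated wild-type and 6841, 6573 and 6965 with rosiglitazone, groups without overlap. Fkbp9 rose by 0.25 (limma adjusted p = 0.000799) and was higher with rosiglitazone than with MRL24 by 0.20 (adjusted p = 0.0101). The collagen chaperone gene Serpinh1 rose by 0.21 with rosiglitazone (adjusted p = 0.00854) and 0.18 with MRL24 (adjusted p = 0.0305). The cargo receptor gene Lman1 rose by 0.20 (adjusted p = 0.00664) and 0.25 (adjusted p = 0.00682), and with the mean of its probe sets both calls were lost (0.01, adjusted p = 0.952, and 0.02, adjusted p = 0.803). Fkbp2, another prolyl isomerase gene, fell by 0.32 with rosiglitazone and 0.28 with MRL24 (adjusted p = 0.0206 and 0.0472). Fkbp11 fell by 0.31 and Sdf2 by 0.25 with MRL24 (adjusted p = 0.0138 and 0.0471), and Tmx1, a membrane-bound thioredoxin, fell by 0.21 with S273A (adjusted p = 0.0247).

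In ER degradation, of 13 tested genes, Ube2g2, a ubiquitin-conjugating enzyme, rose by 0.21 with S273A (limma adjusted p = 0.0492). Vcp, the ATPase that extracts proteins from the ER, fell by 0.19 with S273A (limma adjusted p = 0.0165). These were the 2 called of 13 (15.4%), against 7.78% of all genes. With a ligand none was called, and 3 (rosiglitazone) and 2 (MRL24) had an unadjusted limma p under 0.05. Over all genes 23.8% and 25.2% did, and 8.52% and 5.86% were called. With the mean of its probe sets Vcp was not called (-0.05, adjusted p = 0.737). In translocation and vesicle export, of 18 genes, Spcs3, a signal peptidase subunit, fell by 0.31 and the COPII coat gene Sec23a by 0.18 with S273A (adjusted p = 0.00319 and 0.0421). Sec61b, a subunit of the translocon, fell by 0.21 with rosiglitazone and 0.26 with MRL24 (adjusted p = 0.0246 and 0.0147), and Sar1a, the GTPase that starts COPII coats, rose by 0.25 with rosiglitazone (adjusted p = 0.00117). Of these 18 genes 2 were called with S273A (11.1%), 2 with rosiglitazone (11.1%) and 1 with MRL24 (5.56%). Over all genes the called shares were 7.78%, 8.52% and 5.86%.

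Of cytosolic chaperones and co-chaperones beyond the set, 39 were tested. None was called by limma with S273A or MRL24, against 7.78% and 5.86% of all genes. An unadjusted p under 0.05 was seen for 8 with S273A and 5 with MRL24. Over all genes 21.5% and 25.2% had such a p. The calls with rosiglitazone were 2 of 39 (5.13%), against 8.52% of all genes. With rosiglitazone Bag3, an HSP70 co-chaperone of selective autophagy, rose by 0.25 and Dnajb4, a J-domain protein, fell by 0.20 (limma adjusted p = 0.0261 and 0.0238), which became -0.09 (adjusted p = 0.406) with the mean of the Dnajb4 probe sets. Of 13 mitochondrial genes, Hscb, a co-chaperone of iron-sulfur cluster assembly, fell by 0.25 with rosiglitazone, and Lonp1, the matrix protease, rose by 0.16 with MRL24 (adjusted p = 0.0181 and 0.0388). Each was the 1 called gene of the 13 (7.69%), against 8.52% of all genes with rosiglitazone and 5.86% with MRL24. None was called with S273A, against 7.78% of all genes.

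Many of these pathway calls were lost when 1 array was left out, in some cases an array outside the comparison. Ube2g2 with S273A was lost without any 1 rosiglitazone or MRL24 array, while its change stayed at 0.21. Of 38 calls, 10 held without each array in turn: Spcs3, Mbtps1, Creb3l1, Iars and Atf5 with S273A, Fkbp9, Lman1, Sar1a and Creb3l1 with rosiglitazone, and Lman1 with MRL24. The other 28 were lost without at least 1 array, 16 of them without untreated wild-type replicate 2. Every call of these genes with MRL24 except Lman1 was among the 28. Creb3l1 and Spcs3 with S273A and Fkbp9, Sar1a and Creb3l1 with rosiglitazone kept their calls in all 20 alternative settings.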

How the data were processed

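Biotin-labelled RNA of 12 samples in 4 groups of 3 was measured on Affymetrix arrays, and the authors deposited 1 table of intensity values on a linear scale, with a normalization not given in the sources used here. Values of exactly 1 made up 2.09% to 2.46% of an array. There were 22690 probe sets, of which 20380 named a single gene, 691 named several, 1555 were unnamed here and 64 served as controls. Gene symbols were checked through the Entrez IDs of 20351 probe sets, with 0 changes. Each gene was represented by its brightest probe set, and genes with a mean below the 30th percentile of genes, an intensity of 132, were left out, so 8675 of 12393 genes were tested.

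Values were used as log2(intensity + 16), which understates changes of dim genes, and mean levels are of intensities. All 12 arrays were fitted together with limma 3.58.1 (R 4.3.3), using lmFit and trended eBayes, with 8 residual and 7.56 prior degrees of freedom. The procedure was tested on simulated data. P-values were adjusted by Benjamini-Hochberg over all tested genes, and intervals are 95% intervals of the fit, whose precision the number of arrays limits. Figures were drawn with python 3.11.15 and matplotlib 3.10.9.

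The genes and lists were chosen with earlier results of these data known, so counts over them are descriptions. Per-array values were given for the called genes of the set and for Hspa5, Xbp1, Ddit3, Atf4, Hspa8, Hsp90aa1 and Hspb1, and Chac1, Hspd1 and Sdf2l1 were added after their values were seen. From the pathway list up to 4 called genes per role and comparison were named, by lowest adjusted p. Cell type markers of adipocytes, fibroblasts, macrophages, endothelium and skeletal muscle were summed per array. Fabp4 made up most of the adipocyte sum in every group. The endothelial sums lay between 705 and 1035 and the skeletal muscle sums between 520 and 637, over all groups. Promoter windows came from RefSeq, build GRCm38.p6.

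The alternatives were a pseudocount of 1, no filter, equal array medians, quantile normalization, the mean of all probe sets, only the 6 arrays compared, the replicate number as a block, and each array left out in turn. A filter at the 30th percentile of probe sets was chosen after seeing the data.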

Additional observations from a re-analysis of the deposited data

Results flagged for a closer look

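The genes below differed between the ligands by a direct test of rosiglitazone against MRL24 arrays (limma, Benjamini-Hochberg adjusted over 8675 genes, 3 arrays per ligand). Canx was lower with rosiglitazone by -0.12 on the log2 scale. Fkbp9 was higher by 0.20 and Nupr1 by 0.26, and Cebpb was lower by -0.21. The Canx call was kept in 3 of 20 alternative settings. No group was large enough for a search for outlying arrays, since each had 3.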

How the results depend on the processing

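Of 13 called tests of the set, 4 kept direction and call in all 20 alternatives: Dnajb9 and Atf3 with S273A, and Dnajb9 and Ddit3 with rosiglitazone. None of these 13 turned direction in an alternative. Of the 139 tests that were not called, 17 were called in at least 1 alternative. Dnajb1 with rosiglitazone, called in some alternatives, depended on the probe set, with 0.18 on the brighter one and -0.19 on the other. Among pathway genes Mbtps1 with S273A turned, from -0.23 to 0.0397 (limma adjusted p = 0.894) with the mean of all probe sets.

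The ER count with S273A was 5, with 2 under the mean of all probe sets and 3 in the fit of only the 6 arrays compared. With rosiglitazone it was 4, with 2 in both of those settings. With MRL24 it was 2, with 1 without a filter, 4 with equal medians and 0 with 6 arrays. Between the ligands it was 1, with 0 without a filter, with equal medians and with the probe set filter, and 3 with 6 arrays. The heat shock count of 0 became 1 for S273A with the mean of all probe sets (Dnaja1), for rosiglitazone after quantile normalization and between the ligands with 6 arrays. For MRL24 it was 1, and 0 without a filter or with 6 arrays. Over all genes the fit of 6 arrays gave 243 instead of 675 calls for S273A, 372 instead of 739 for rosiglitazone, 50 instead of 508 for MRL24 and 557 instead of 231 between the ligands, and no filter gave 226 for MRL24. For rosiglitazone the split over all genes was 342 higher and 397 lower, and 305 and 536 with equal medians. The fits of 6 arrays used fewer arrays, and the fit without a filter tested more genes. The cause of these shifts in the counts was not tested.

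Leaving out 1 array at a time gave 3 to 6 ER calls for S273A, 3 to 5 for rosiglitazone, 0 to 5 for MRL24 and 0 to 3 between the ligands. Heat shock calls ran from 0 to 0, 0 to 1, 0 to 2 and 0 to 1 in the same order. Calls over all genes ran from 396 (without S273A replicate 3) to 649, 392 (without rosiglitazone replicate 2) to 787, 70 (without MRL24 replicate 3) to 838 (without untreated wild-type replicate 1) and 99 (without rosiglitazone replicate 3) to 494 (without untreated wild-type replicate 2).

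Replicate numbers did not pair the arrays. Deviations of same-numbered arrays correlated at -0.116 to 0.147, with 2 of 18 pairs over 0.1, and 3 of 12 arrays correlated best with one of their own number. With the replicate block Chac1 with rosiglitazone was called (adjusted p = 0.0421), Calr with rosiglitazone (0.0628) and Canx between the ligands (0.0871) were not, the ER count was 5 for S273A and 0 between the ligands, and over all genes it was 547, 628, 355 and 177. Fewer than 4 arrays a group limit what can be detected: the median standard error of a change in the set was 0.06.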
